A study of Homo sapiens with 5 samples.

Results

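The 4 HOX clusters of the human genome were followed through 4 maps of a histone mark and 1 map of a hormone receptor. The members are the protein-coding genes whose symbol is HOXA, HOXB, HOXC or HOXD followed by a number, which are 39 of 20037 protein-coding genes in the RefSeq annotation of GRCh38.p14. HOXA holds 11 of them, HOXB 10, HOXC 9 and HOXD 9. Each cluster was read as a window from its first to its last gene plus 10 kb on either side. The windows were chr7:27082993-27210091 for HOXA, chr17:48518526-48738750 for HOXB, chr12:53928831-54066030 for HOXC and chr2:176077487-176200907 for HOXD, 607.945 kb in all. The rule by symbol uses no measured value, but the members were chosen with earlier results of these data known.

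HOX genes encode homeodomain transcription factors that give cells their position along the body axis. Genes with low numbers (anterior) act toward the head and genes with high numbers (posterior) toward the tail and the limb ends, in the same order as they lie along each cluster. Genes with the same number in different clusters are paralogues and often act in the same body region. In the mouse, paralogues of group 11 are needed for the kidney to form, and in adult tissue the pattern of active HOX genes is kept as a memory of origin, with the Trithorax and Polycomb proteins holding clusters active or silent.

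The cells were 786-O, an established human line of clear cell renal carcinoma. CUT&Tag, in which an antibody brings a transposase to its target so that the DNA there is cut and tagged, was applied to histone H4 lactylated at lysine 12 (H4K12la) and to the glucocorticoid receptor (GR). H4K12la was mapped in 2 untreated control libraries and in 2 libraries of cells given 10 µM dexamethasone, a synthetic glucocorticoid, for 48 h. GR was mapped in 1 library of cells given the same dexamethasone treatment, and has no untreated counterpart here. All 5 libraries carry 1 batch label and come from 1 cell line. Whether the replicates are separate cultures is not stated, so the spread between them, and every p-value from it, may be technical.

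Each library has 1 deposited peak list. The summit height of an H4K12la peak is the authors' whole-number value for that peak. Whether it is scaled to sequencing depth is not stated, it was treated as unscaled, and depth is unknown. Over the chromosomes 1 to 22, X and Y the lists held 126594 and 112409 H4K12la peaks in control, 80721 and 67582 after dexamethasone, and 8065 GR peaks. The median heights were 24 and 26 in control and 23 and 24 after dexamethasone. A difference between lists can therefore come from depth as well as from chromatin, and this cannot be told apart from the deposited values. Of 7 renal epithelial marker genes, 6 and 7 had an H4K12la peak at the start in the control lists and 4 and 3 in the dexamethasone lists, and PTPRC, which marks blood cells, had none in any list. A peak of this mark is not a measure of expression.

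The following promoters carry results given further on. They run from 250 bases before to 50 bases after a RefSeq start, 5′ to 3′ on the gene's strand, from RefSeq with build GRCh38.p14. Capitals mark bases inside a GR peak for HOXA13 and inside an H4K12la peak of any list for the others. HOXA13 (chr7:27200042-27200341, minus strand) is shown because it is the only member start with a GR peak. HOXA10 (chr7:27179812-27180111, minus strand, the upstream of its listed starts) is covered whole by a peak in both control lists and by none after dexamethasone. HOXD10 (chr2:176116528-176116827, plus strand) is covered whole in both dexamethasone lists. The start shared by HOXC4 and HOXC5 (chr12:54016638-54016937, plus strand) has no peak on it, and the highest summit of all the HOX windows lies 1483 bases downstream.
HOXA13: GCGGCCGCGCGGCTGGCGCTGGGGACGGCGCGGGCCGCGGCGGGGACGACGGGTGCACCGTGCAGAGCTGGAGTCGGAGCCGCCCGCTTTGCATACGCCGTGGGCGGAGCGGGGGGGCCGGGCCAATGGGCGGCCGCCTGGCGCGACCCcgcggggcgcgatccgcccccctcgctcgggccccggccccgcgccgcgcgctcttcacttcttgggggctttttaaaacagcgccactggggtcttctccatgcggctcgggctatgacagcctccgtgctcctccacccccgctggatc
HOXA10: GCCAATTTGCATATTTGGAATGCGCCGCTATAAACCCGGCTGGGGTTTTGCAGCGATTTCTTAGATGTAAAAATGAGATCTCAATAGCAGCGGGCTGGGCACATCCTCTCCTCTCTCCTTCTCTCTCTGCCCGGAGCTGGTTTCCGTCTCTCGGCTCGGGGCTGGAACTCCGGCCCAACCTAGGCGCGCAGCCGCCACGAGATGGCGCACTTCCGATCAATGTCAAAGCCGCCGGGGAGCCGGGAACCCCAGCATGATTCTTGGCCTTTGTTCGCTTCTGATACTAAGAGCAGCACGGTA
HOXD10: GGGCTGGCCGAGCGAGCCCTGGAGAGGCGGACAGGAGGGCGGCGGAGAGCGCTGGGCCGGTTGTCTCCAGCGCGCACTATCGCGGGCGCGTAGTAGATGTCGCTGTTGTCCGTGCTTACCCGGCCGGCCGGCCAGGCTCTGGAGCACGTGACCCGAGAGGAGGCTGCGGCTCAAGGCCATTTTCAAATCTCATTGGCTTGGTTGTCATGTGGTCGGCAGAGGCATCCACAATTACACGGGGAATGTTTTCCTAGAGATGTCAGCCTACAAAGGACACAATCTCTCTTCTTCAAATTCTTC
HOXC4: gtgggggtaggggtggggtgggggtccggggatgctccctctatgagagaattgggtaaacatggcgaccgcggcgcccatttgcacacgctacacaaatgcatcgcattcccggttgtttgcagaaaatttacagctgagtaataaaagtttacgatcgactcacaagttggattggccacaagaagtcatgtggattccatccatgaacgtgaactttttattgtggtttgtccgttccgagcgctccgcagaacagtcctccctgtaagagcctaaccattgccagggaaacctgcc

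H4K12la peaks were fewer, shorter in sum and lower across the HOX windows in the dexamethasone lists than in the control lists. The windows held 99 and 87 peaks in control and 52 and 47 after dexamethasone, or 93 ± 8.49 against 49.5 ± 3.54 (SD, n = 2 each), a ratio of 0.532. They covered 94.4 and 91.4 kb in control and 40.6 and 40.2 kb after dexamethasone, a ratio of 0.435, while the covered length of all chromosomes had a ratio of 0.622. The groups did not overlap in either measure. For each, p was 0.33 by an exact two-sided permutation test, the smallest that 2 libraries against 2 can give, so no comparison of these groups can pass a threshold of 0.05.

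The HOX windows also took a smaller part of each list. Of every 1000 peaks of a list, 0.782 and 0.774 lay in the HOX windows in control and 0.644 and 0.695 after dexamethasone, a ratio of 0.861 (exact permutation test, two-sided, p = 0.33). The median summit height of HOX peaks was 51 and 58 in control and 29 and 28 after dexamethasone. HOX peaks were thus taller than the control lists' own medians by a wide margin, and only a little taller than the dexamethasone lists' medians. The tallest HOX peaks had heights of 197 and 231 in control and 52 and 51 after dexamethasone.

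**Figure D1:**
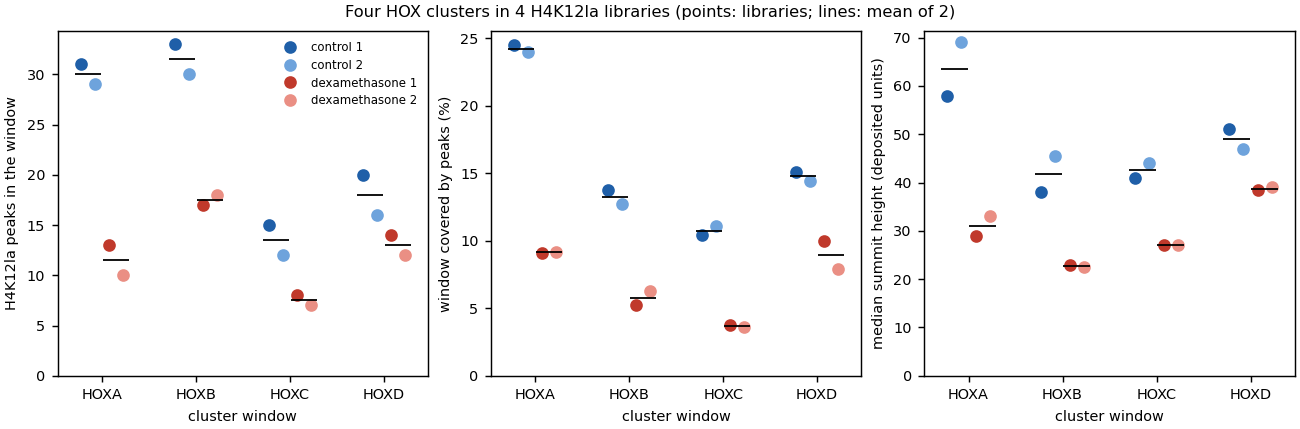
Peaks, covered share of the window in percent and median summit height in deposited units for each cluster window, with 1 point per H4K12la library and a line at the mean of 2. In all 4 clusters both control points lie above both dexamethasone points, and HOXD has the smallest gap in covered share, from 15.1% and 14.4% to 10.0% and 7.89%.

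The clusters differed in how much of the mark their windows held after dexamethasone. HOXA had 31 and 29 peaks in control and 13 and 10 after dexamethasone, covering 31.1 and 30.4 kb against 11.6 and 11.6 kb, a ratio of 0.378. HOXB had 33 and 30 peaks against 17 and 18, covering 30.4 and 28.0 kb against 11.5 and 13.9 kb, a ratio of 0.435. HOXC had 15 and 12 peaks against 8 and 7, covering 14.3 and 15.2 kb against 5.11 and 4.98 kb, a ratio of 0.343. HOXD had 20 and 16 peaks against 14 and 12, covering 18.7 and 17.8 kb against 12.3 and 9.74 kb, a ratio of 0.606. In each cluster the groups did not overlap. Nor did they over all chromosomes, where the covered length had a ratio of 0.622. HOXD lay close to that ratio, and HOXA, HOXB and HOXC lay below it.

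HOXD therefore made up more of what remained. Its share of the covered HOX length was 19.8% and 19.4% in control and 30.4% and 24.2% after dexamethasone. The difference in this share was in the same direction in both dexamethasone libraries, with means of 19.6% ± 0.235 and 27.3% ± 4.40 (SD, n = 2 each; exact permutation test, two-sided, p = 0.33). Per 1000 peaks of a list, HOXD peaks numbered 0.158 and 0.142 in control and 0.173 and 0.178 after dexamethasone, a ratio of 1.17, whereas HOXA had 0.245 and 0.258 against 0.161 and 0.148, a ratio of 0.615. HOXB and HOXC lay between, at 0.904 and 0.900. For HOXB these values overlapped between the groups, at 0.261 and 0.267 in control and 0.211 and 0.266 after dexamethasone.

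**Figure D2:**
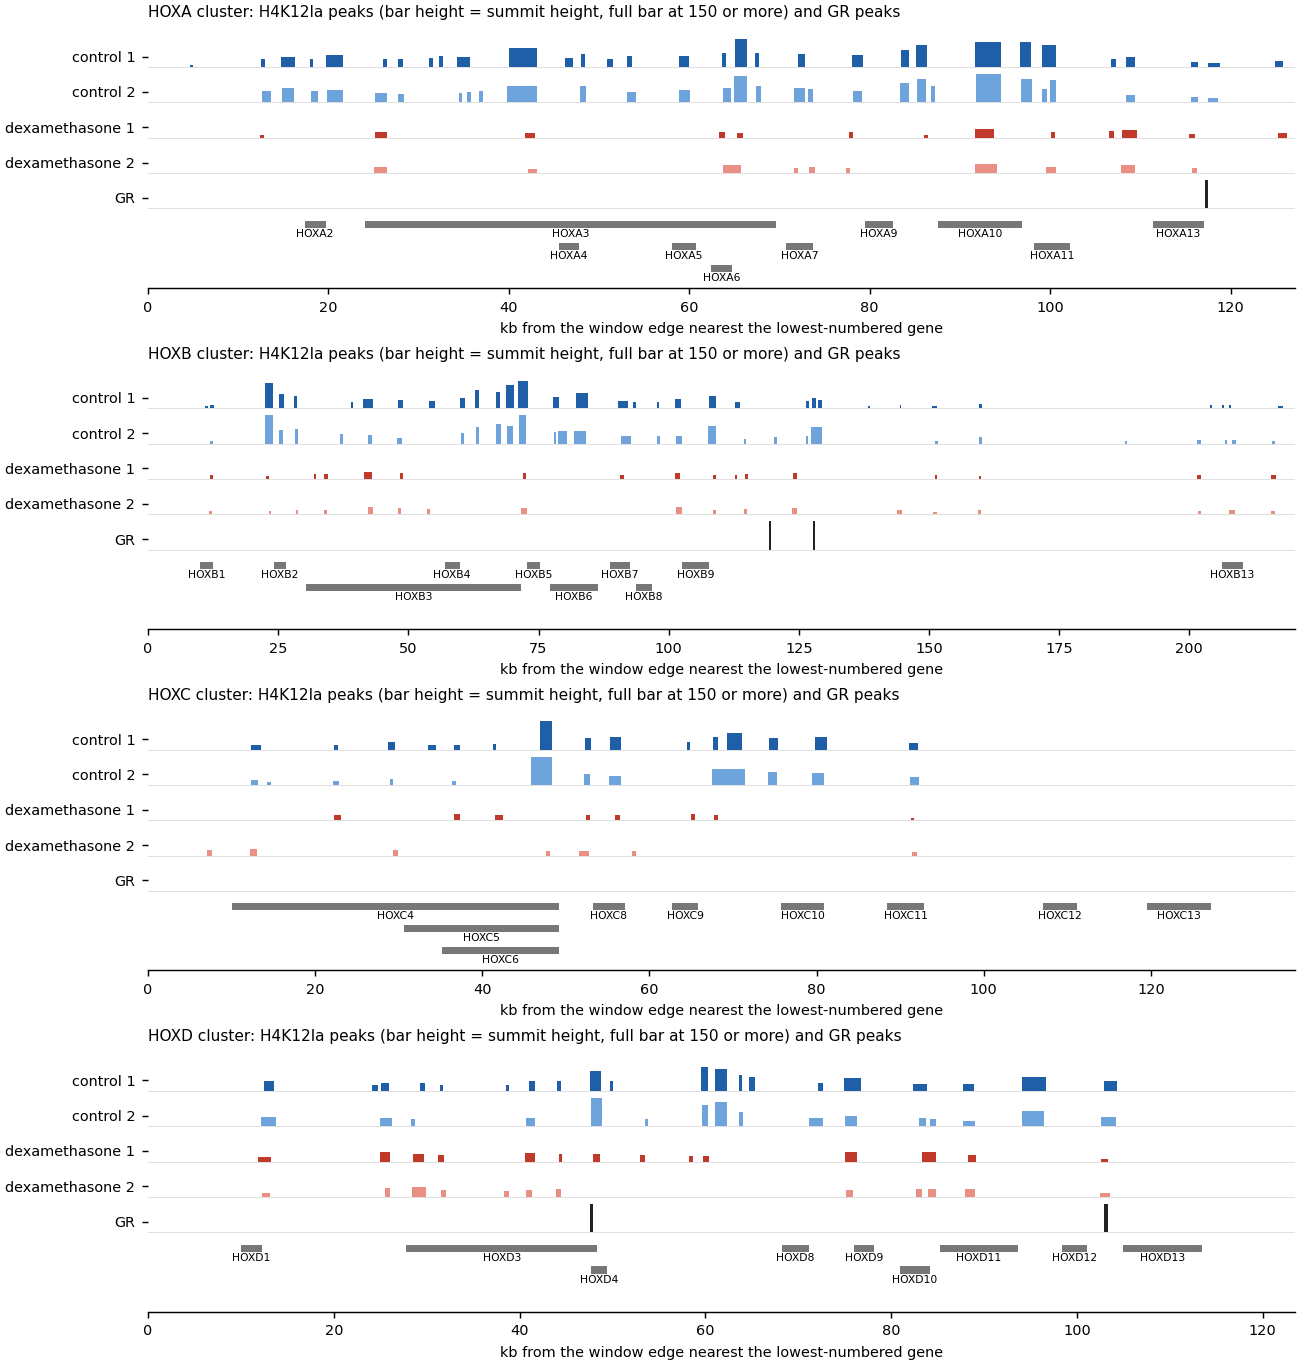
Peaks of the 5 lists across each window, in kb from the edge nearest the lowest-numbered gene, with bar height giving the summit height of H4K12la (full bar at 150 or more), GR peaks drawn at full height and gene spans below. The control tracks are tall and dense from HOXA2 to HOXA11 and from HOXB2 to HOXB9, and the posterior ends of HOXC and HOXD are empty in every list.

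HOXA was the most densely marked cluster in control, with 24.5% and 23.9% of its window under peaks. The highest summits lay at HOXA6 and HOXA10, genes that pattern the trunk and the reproductive tract. The highest peaks reaching within 1 kb of the HOXA6 start had heights of 156 and 138 in control and 30 and 45 after dexamethasone. For HOXA10 the heights were 134 and 152 in control and 45 and 50 after dexamethasone. For both genes every control value exceeded every dexamethasone value.

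The listed starts of HOXA10 behaved differently. The peak with these heights lies at the downstream start, and all 4 lists held it. At the upstream start, the promoter printed above in capitals throughout, the control lists had peaks of 132 and 123 and neither dexamethasone list had any. The HOXA10-HOXA9 readthrough gene had the same heights at its start.

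Of the other HOXA members, 5 had a start peak in both control lists and in no dexamethasone list, called control-only here: HOXA2, HOXA3, HOXA4, HOXA5 and HOXA9. HOXA9, a regulator of blood progenitors that is overexpressed in many leukaemias, had 89 and 102 in control. HOXA3, needed in the mouse for the thymus and parathyroid, has several listed starts and reached 103 and 89. HOXA4 reached 69 and 85. At HOXA3 the absence depends on distance: 1 of its 5 start regions also held dexamethasone peaks, with heights of 26 and 24, that lay more than 1 kb from any listed start. Within the HOXA3 span, a run of 20.2 kb that includes the whole of HOXA4 and HOXA5 held no peak in either dexamethasone list.

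HOXA7 had 67 and 78 in control and 34 in dexamethasone replicate 2 alone. HOXA13, which patterns digits and the urogenital tract, had 26 and 28 in control and 26 in dexamethasone replicate 2. Dexamethasone replicate 1 held the same region at 20, 1081 bases from the start and so outside the 1 kb window. HOXA11 had no peak within 1 kb of its start in any list. A region in the body of HOXA11 was nevertheless held by all 4, at 116 and 119 in control and 33 and 32 after dexamethasone.

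HOXB had the most peaks and the widest window, of 220.225 kb. Its marks were concentrated in the part from HOXB1 to HOXB9, where peaks covered 24.1 and 20.6 kb in control and 8.36 and 7.80 kb after dexamethasone. Beyond HOXB9, toward HOXB13, they covered 6.21 and 7.39 kb against 3.17 and 6.08 kb, and all 4 lists shared a peak-free run of 27.4 kb. The groups did not overlap in either portion.

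The tall HOXB peaks stood around HOXB2, HOXB3 and HOXB5. RefSeq starts are listed here for HOXB1 only, so the other HOXB genes were read at both ends of the gene span, and the strand of HOXB1 says which end is 5′. HOXB2 had summits of 135 and 155 in control and 17 and 18 after dexamethasone at its 3′ end, a difference as wide as any region of all 4 lists showed in these windows (ratio 0.121). At the 5′ end of HOXB2 the control peaks of 76 and 75 had no dexamethasone counterpart. HOXB3 and HOXB5 share 1 peak, at the 5′ end of HOXB3 and the 3′ end of HOXB5, of 144 and 150 in control and 33 and 36 after dexamethasone.

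HOXB9 had 67 and 96 in control and 31 and 40 after dexamethasone. Its dexamethasone maxima lie at the 3′ end, and at the 5′ end the dexamethasone heights were 23 and 23. HOXB1 was the exception in direction. Its start peak was low everywhere, 17 and 17 in control and 20 and 19 after dexamethasone, and it is the only HOX region of all 4 lists whose dexamethasone heights both lay above both control heights.

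Control-only HOXB members were HOXB4, HOXB6, HOXB7 and HOXB13. HOXB4, which expands blood stem cells when overexpressed, had 56 and 58 in control. HOXB6 had 61 and 60, at its 3′ end. HOXB7 had 38 and 40, and dexamethasone replicate 1 held a peak of 23 in the same merged region beyond 1 kb of the gene's ends. HOXB13, the prostate regulator at the far end of the cluster, had 3′ peaks of 17 and 18 that do not overlap each other, each in 1 control list. A region in its body had 19 and 19 in control and 21 in dexamethasone replicate 2 alone, so HOXB13 is control-only just within 1 kb of its gene ends. HOXB8 had a start peak of 34 in control replicate 1 alone, and the same region held a peak of 39 in control replicate 2 just beyond 1 kb and none after dexamethasone.

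HOXC held the tallest H4K12la peak of all the HOX windows in control. The start at chr12:54016888, which is listed for HOXC4 and HOXC5 and is also the 5′ end of the HOXC6 span, was followed by a peak of 197 in control replicate 1 and 231 in control replicate 2. These heights lie at the percentiles 99.7 and 99.8 of their lists. Because 3 members share this peak, it counts as 3 control-only genes but as 1 place in the genome. Dexamethasone replicate 2 held a peak of 27 inside the same region, more than 1 kb from the start, and dexamethasone replicate 1 held none there.

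HOXC8, a trunk patterning gene, was the only HOXC member with a peak in all 4 lists, of 67 and 60 in control and 27 and 25 after dexamethasone, without overlap. These maxima mix both gene ends. At the 3′ end all 4 lists held 1 region, at 61 and 60 in control and 27 and 24 after dexamethasone. At the 5′ end the heights were 67 and 48 against 27 and 25, and the 25 lay in a separate region of dexamethasone replicate 2 alone. HOXC10 was control-only. HOXC11 had 36 and 40 in control and 18 in dexamethasone replicate 2, and the peak of 13 that dexamethasone replicate 1 held in the same region lay 1189 bases away. HOXC9 had 32 in dexamethasone replicate 1 alone within 1 kb, while a control replicate 1 peak of 40 lay 1008 bases from its 5′ end, so that the contrast rests on the 1 kb limit. HOXC12 and HOXC13, the latter known for hair and nail formation, lay in a run of 44.9 kb at the posterior edge without a peak in any list.

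In HOXD the heights of HOXD9 and HOXD10 overlapped between the groups. HOXD9 had 68 and 52 in control and 52 and 38 after dexamethasone, at its 3′ end, with no peak within 1 kb of its 5′ end in any list. HOXD10, which acts in the limbs and hindlimb innervation, had 34 and 44 in control and 49 and 42 after dexamethasone. On the HOXD10 promoter itself, 0 and 160 of 300 bases lay in a control peak, and all 300 lay in a peak in both dexamethasone lists. HOXD1 differed from them, with 50 and 48 in control and 25 and 22 after dexamethasone.

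The other HOXD members were held by fewer lists. HOXD11, the group 11 member of this cluster, was control-only with 74 and 81, at a peak upstream of its start. Within the body of HOXD11 all 4 lists held a peak, of 37 and 30 in control and 33 and 40 after dexamethasone, which overlapped. HOXD8 was control-only with 44 and 42. HOXD4 had 104 and 165 in control and 42 in dexamethasone replicate 1 alone. HOXD3 had 52 in control replicate 1, none in control replicate 2, and 40 and 41 after dexamethasone. HOXD12 and HOXD13 had no start peak in any list, and a run of 19.1 kb that holds HOXD13 was free of peaks.

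**Figure D3:**
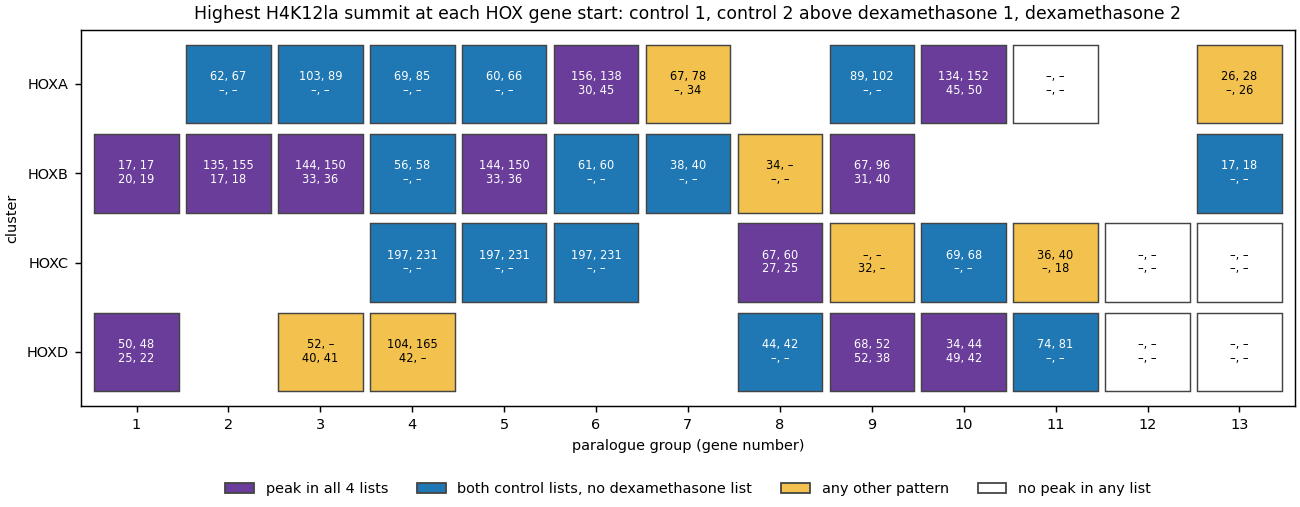
HOX genes arranged by cluster and paralogue group, with the summit height, in deposited units, of the highest peak that reaches within 1 kb of a start. Control 1 and 2 are on the upper line and dexamethasone 1 and 2 on the lower line, with a dash for no peak. The summit itself may lie farther than 1 kb from the start. Colours give the pattern over the lists, and the white cells without a peak are all in groups 11 to 13.

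Counted over the genes, 33 and 31 of 39 had a start peak in control and 15 and 15 after dexamethasone, a ratio of 0.469 (exact permutation test, two-sided, p = 0.33). Of all protein-coding genes, 60.5% and 61.2% had one in control and 34% and 27.3% after dexamethasone, a ratio of 0.503. Control-only members numbered 15, or 38.5% of the HOX genes, beside 22.1% of all genes. Among genes with a start peak in both control lists, they were 15 of 31 HOX genes and 4437 of 11315 of all genes. Members with a peak in all 4 lists numbered 11, or 28.2%, beside 19.4% of all genes. No member was dexamethasone-only, a class that holds 0.619% of all genes. A further 8 members had another pattern and 5 had no peak in any list, 12.8% beside 31.7% of all genes. The rule did not fall alike on both sets. Both gene ends were read for 19 of the 39 HOX genes and for 4195 of all 20037 genes.

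Neighbouring HOX genes share peaks, so these counts are not of independent genes. Of the 15 control-only members, 10 had no dexamethasone peak anywhere in their start regions: HOXA2, HOXA4, HOXA5, HOXA9, HOXB4, HOXB6, HOXB13, HOXC10, HOXD8 and HOXD11. The other 5, HOXA3, HOXB7, HOXC4, HOXC5 and HOXC6, had a dexamethasone peak farther along the same region. With a window of 2.5 kb around the starts, 9 members were control-only.

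By position, start peaks in control were found at nearly all anterior and central genes and at fewer posterior ones. Of 12 anterior genes (groups 1 to 4), 12 and 11 had a start peak in control and 7 and 5 after dexamethasone. Of 15 central genes (groups 5 to 9), 14 and 13 had one in control and 6 and 6 after dexamethasone. Of 12 posterior genes (groups 10 to 13), 7 and 7 had one in control and 2 and 4 after dexamethasone. All 5 members without a peak in any list, HOXA11, HOXC12, HOXC13, HOXD12 and HOXD13, are posterior. This count rests on reading 19 members at both gene ends. With the 5′ end alone, set by the cluster's strand, 9 members had no peak, of which 6 were posterior and 3, HOXB5, HOXB6 and HOXD9, were central. Group 12 had no start peak at all in its 2 members.

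Covered length in control was highest inside each window and not at its anterior edge. Each window was cut into 10 equal bins counted from the anterior edge. The added margin of 10 kb makes up most of bin 1 in HOXA, HOXC and HOXD. Bin 1 holds no HOX 5′ end in HOXA or HOXC, so its coverage depends on how the windows were drawn. In control it was under peaks for 3.65% and 0.905% in HOXA and 6.08% and 2.62% in HOXB. It was 8.36% and 6.25% in HOXC and 0% and 1.37% in HOXD. The bin with the most control coverage was number 8 in HOXA, with 45.2% and 41.1%, and number 4 in HOXB, with 34.2% and 36.5%. It was number 6 in HOXC, with 31.9% and 39.5%, and number 8 in HOXD, with 30.8% and 29.1%. After dexamethasone these bins had 20.8% and 28.1% in HOXA, 2.34% and 4.97% in HOXB, 0% and 0% in HOXC and 6.81% and 8.31% in HOXD. At the posterior edge, bins 8 to 10 of HOXC and bin 10 of HOXD had 0% in every list, where start peaks were also missing. Bin 10 had 22.9% and 15.8% in HOXA and 9.54% and 11.5% in HOXB in control. It also includes the margin.

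Paralogues did not share 1 pattern. In group 4, HOXA4, HOXB4 and HOXC4 were control-only and HOXD4 had a peak in 1 dexamethasone list. Dexamethasone replicate 2 also held a peak 1077 bases from the HOXC4 start, so that this contrast rests on the 1 kb limit. In group 10, HOXA10 and HOXD10 had a peak in all 4 lists while HOXC10 was control-only. In group 11, HOXD11 was control-only, HOXC11 had a peak in 1 dexamethasone list within 1 kb and in the other just beyond it, and HOXA11 had none at its start. In group 13, control peaks were found for HOXA13 and HOXB13 and for neither of the other members.

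Merging peaks of the 4 lists that share 1 base gave 115 H4K12la regions in the HOX windows. Control-only regions numbered 28, or 24.3%, beside 18% of all regions of the genome. Regions in all 4 lists numbered 27, or 23.5%, beside 15.9%. Dexamethasone-only regions numbered 2, or 1.74%, beside 3.11%. Both of these lie in HOXB, 1 inside HOXB3 with heights of 28 and 23 and 1 in LINC03057 and LINC02086 with 32 and 32. HOXA had 12 control-only regions of 33, HOXB 10 of 42, HOXC 2 of 18 and HOXD 4 of 22.

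Where all 4 lists held a region, its summit was mostly lower after dexamethasone in HOXA and seldom so in HOXD. Both dexamethasone heights lay below both control heights in 16 of the 27 regions, or 59.3%, beside 39.4% of such regions genome-wide. They lay above in 1, or 3.70%, beside 25.9%. The count was 6 of 8 in HOXA, 6 of 9 in HOXB, 2 of 2 in HOXC and 2 of 8 in HOXD, and the remaining 6 in HOXD overlapped. The median ratio of dexamethasone to control height was 0.382 in HOXA, 0.772 in HOXB, 0.415 in HOXC and 0.990 in HOXD, beside 0.956 for all regions. The counts and the ratios both change with control height, as given below.

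**Figure D4:**
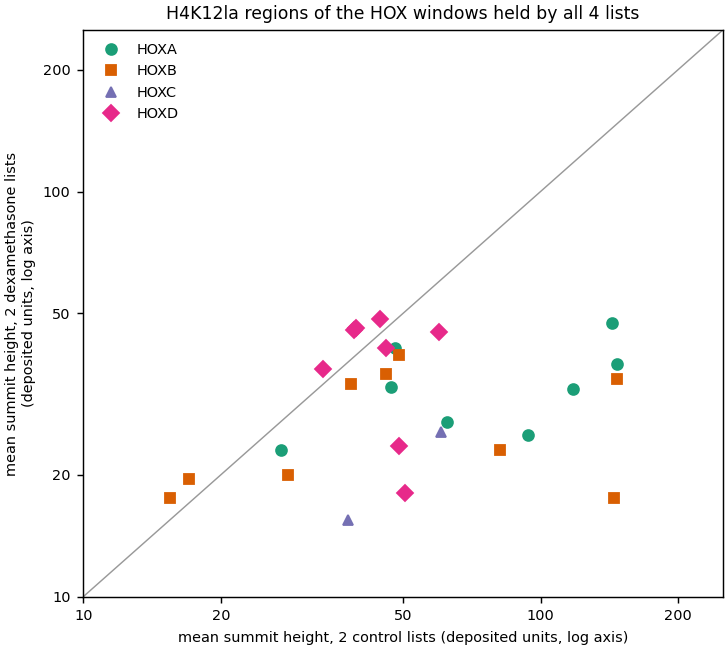
Mean summit height of the 27 regions held by all 4 lists, control lists on the x axis and dexamethasone lists on the y axis, both log axes in deposited units, with the line of equal heights. Regions with control means over 100 all lie far below the line, and HOXD regions lie between control means of 33.5 and 60.

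The control heights of the clusters were not alike, and this bears on the comparison. The 8 HOXD regions of all 4 lists had mean control heights from 33.5 to 60, whereas those of HOXA ran from 27 to 147 and those of HOXB from 15.5 to 147. Over the whole genome, regions of all 4 lists with a mean control height of 60 or more had a median ratio of 0.328, those from 40 to under 60 had 0.80, and those under 40 had 1.11. In the same bands, HOX regions had 0.279, 0.789 and 1.09. From the tallest band to the lowest, both dexamethasone heights lay below both control heights in 92.5%, 58.9% and 16.3% of such regions genome-wide. In the HOX windows it was 9 of 10, 5 of 8 and 2 of 9, or 90%, 62.5% and 22.2%, close to the genome-wide shares. The bands were set after these heights had been seen.

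The absence of whole regions followed another order. Of the regions held by both control lists, those of height 60 or more were absent from both dexamethasone lists in 19 of 36 cases in the HOX windows, or 52.8%, and in 28.4% of cases genome-wide. Between 40 and under 60 it was 6 of 16, or 37.5%, beside 37.2%. Under 40 it was 3 of 18, or 16.7%, beside 42.5%. By cluster, the tall regions absent after dexamethasone were 7 of 14 in HOXA, 7 of 11 in HOXB, 2 of 5 in HOXC and 3 of 6 in HOXD. In HOXD they include neighbouring regions at LOC401021 and HOXD-AS2, with 118 and 130 and with 85 and 77 in control, between HOXD8 and HOXD4.

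**Figure D5:**
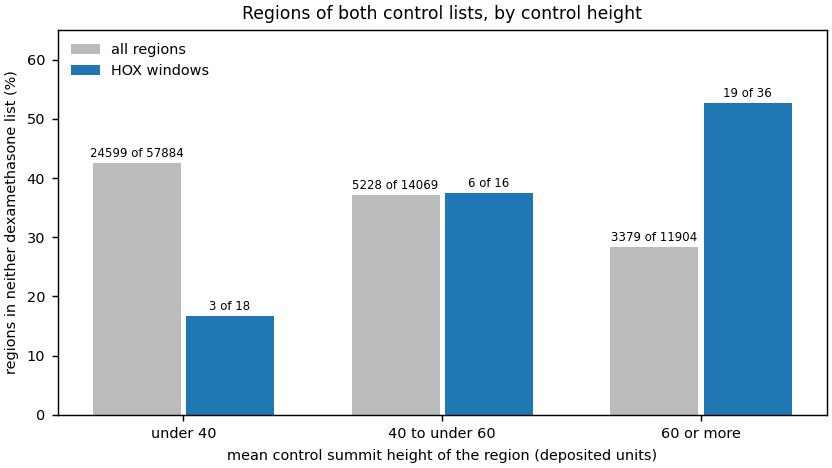
Percentage of regions held by both control lists that were in neither dexamethasone list, by mean control height in deposited units, for all regions (grey) and the HOX windows (blue), with counts above the bars. The grey bars go down with height from 42.5% to 28.4%, and the blue bars go up from 16.7% to 52.8%.

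GR peaks were scarce at the starts of HOX genes. GR, once bound by dexamethasone, enters the nucleus and binds DNA as a transcription factor. The windows held 5 GR peaks, 0.620 per 1000 of the list, of which 1 lay in HOXA, 2 in HOXB, 2 in HOXD and none in HOXC. Only HOXA13 had a GR peak within 1 kb of its start, 1 of 39 members, while 33% of all protein-coding genes had one.

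The GR peak at chr7:27200193-27200486 lay 102 bases upstream of the HOXA13 start and over the start of HOTTIP, the antisense RNA that is known to act on the distal HOXA genes. It covered 149 of the 300 promoter bases printed above. The H4K12la peak that it touched had a height of 23 in control replicate 2, and the corresponding peak of 23 in control replicate 1 began 21 bases away. Neither dexamethasone list had a peak there, the nearest being 1183 and 917 bases away.

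In HOXD, the GR peak at chr2:176153033-176153326 lay 1483 bases from the start of HOXD4, overlapped the ends of the control H4K12la peaks of 104 and 165 and extended beyond both, and lay 46 bases from the peak of 42 of dexamethasone replicate 1. The GR peak at chr2:176097544-176097975, between HOXD13 and HOXD12, overlapped H4K12la in all 4 lists, with 52 and 49 in control and 16 and 20 after dexamethasone. It is the only GR peak of the HOX windows on a dexamethasone H4K12la peak. In HOXB, the GR peak at chr17:48646263-48646556 overlapped control peaks of 56 and 91 and no dexamethasone peak, and that at chr17:48637803-48638166 overlapped none. Both lie beyond HOXB9, in the long noncoding RNA LINC03057.

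The HOX clusters also hold long noncoding RNAs and miRNAs that were read by the same rule. Of 28 long noncoding RNAs, 7 were control-only, or 25% beside 22.1% of protein-coding genes, 4 had a peak in all 4 lists, or 14.3% beside 19.4%, 10 had another pattern and 7 had none. HOXBLINC had 87 and 102 in control and none after dexamethasone. HOTAIRM1, an RNA of the HOXA cluster, had 56 and 61 in control and 16 in dexamethasone replicate 1 alone. HOTAIR, the HOXC antisense RNA known for its link to Polycomb proteins, had 36 and 40 in control and 13 and 18 after dexamethasone. HAGLR, beside HOXD1, had the same peak as HOXD1. These RNAs were chosen for mention after their values had been seen.

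The miRNAs of the clusters belong mainly to the miR-10 and miR-196 families, which target HOX messenger RNAs among others. Their mature forms are printed from RefSeq with the seed, bases 2 to 8, in capitals, because the miR-196 members come from 3 clusters and share 1 seed while lying beside peaks that differ in pattern over the lists.
hsa-miR-196a-5p: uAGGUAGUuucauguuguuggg
hsa-miR-196b-5p: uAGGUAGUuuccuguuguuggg
hsa-miR-10a-5p: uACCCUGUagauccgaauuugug

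MIR196A2 in HOXC lay 1 base from a control peak of 60 and inside a control peak of 68, and the nearest dexamethasone peaks were 5921 and 15734 bases away. MIR196B in HOXA lay 167 and 207 bases from control peaks of 117 and 127 and 70 bases from a peak of 17 in dexamethasone replicate 1. In dexamethasone replicate 2 the nearest peak was 5059 bases away. MIR196A1 in HOXB, which encodes the same 5′ arm as MIR196A2, had peaks of 36 and 23 within 1 kb in control and of 26 and 26 after dexamethasone, which overlapped. MIR10A, upstream of HOXB4, lay 458 and 532 bases from control peaks of 56 and 58, and more than 7 kb from any dexamethasone peak. MIR10B, near HOXD4, had a control peak of 51 at 413 bases in replicate 1 alone. MIR7704, at the HOXD1 start, had the HOXD1 peak in all 4 lists, and MIR3185 and MIR615 had low peaks or none within 1 kb.

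Promoter letters were searched on both strands in the 26 HOX promoters with a listed sequence. The glucocorticoid receptor core site AGAACA was found in 4, or 15.4%, and in 11.8% of 22078 promoters of protein-coding genes. The HOXA13 promoter held none, and the HOXC4 promoter held 1. The nuclear receptor core site AGGTCA was in 0 of 26 and in 11.9% of all. The homeodomain core TAAT, which HOX proteins bind, was in 20, or 76.9%, and in 42.8% of all. The median GC content was 58% for HOX promoters and 62.3% for all. A match describes letters only.

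Genes that work with HOX proteins were read in the same way. Of 9 cofactors that bind DNA together with HOX proteins, 4 and 6 had a start peak in control and 1 and 1 after dexamethasone, with 3 control-only, or 33.3% beside 22.1% of all genes. PKNOX1 was the only cofactor in all 4 lists, with 66 and 68 in control and 29 and 36 after dexamethasone. MEIS2 had 92 and 80 in control and none after dexamethasone. Of 21 Trithorax, Polycomb and other chromatin regulators of HOX genes, 17 and 19 had a start peak in control and 8 and 4 after dexamethasone. Of these, 9 were control-only, or 42.9% beside 22.1% of all genes, and 2 were in all 4 lists, or 9.52% beside 19.4%. A GR start peak was found at 13, or 61.9% beside 33%. ASH1L, a Trithorax methyltransferase, had 75 and 113 in control and none after dexamethasone, and DOT1L, which methylates histone H3, had 59 and 62 in control and 48 and 52 after dexamethasone.

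Homeobox genes outside the clusters were read beside the HOX genes. Of 15 ParaHox and HOX-linked genes, 2 and 1 had a start peak in control and 1 and 0 after dexamethasone. The 12 with none in any list were 80%, beside 31.7% of all genes. EVX2, which neighbours HOXD13, was among them. Of 60 genes of other homeobox families, 15 and 17 had a start peak in control and 10 and 11 after dexamethasone. The 35 with none in any list were 58.3%, beside the same 31.7%. Of the 39 HOX genes, 33 and 31 had one in control, with 19 of the 39 read at both gene ends. These shares are descriptions of the same libraries.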

How the data were processed

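H4K12la and GR were mapped by CUT&Tag in 786-O cells, and samples were grouped from the labels. Per the submitters' processing notes, fastp 0.19.6, Bowtie2 and deepTools were among the tools and GRCh38 was the build. No source used here names the peak caller or its settings. The authors made and deposited a separate list for every library, with positions and lengths and, for H4K12la, a summit and a whole-number signal there, called height here. The GR rows are numbered up to 15183 with gaps that no source explains, and the 8065 present were used. Read depth is unknown, so no interval was computed.

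Only the chromosomes 1 to 22, X and Y were used. A peak counted when 1 base overlapped. Gene starts are all RefSeq starts listed for 20 of the 39 members, and both ends of the gene span for the other 19, since no strand is given for them in the tables used. A start peak reaches within 1 kb of a start by 1 base or more, so its summit may lie farther away. Control-only means both control lists and neither dexamethasone list, and dexamethasone-only the reverse. Shares of the whole genome use the same rules on 20037 genes. The members and the gene lists were chosen with earlier results of these data known. All 39 members are in the counts and 1 is not reported here by itself. Values are given for those in all 4 lists, those with a GR start peak and, in each cluster, the 3 control-only members with the highest height percentile. Values of other members, of RNAs and of genes in all 4 lists outside the clusters were added after they were seen. Groups were compared by exact permutation tests over libraries. Sequences came from RefSeq tables. Alternatives changed height, list length, window, overlap, merging, block and libraries. The code was tested on simulated lists. Python 3.11.15, numpy 2.4.6, pandas 2.3.3 and matplotlib 3.10.9 were used.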

Additional observations from a re-analysis of the deposited data

How the results depend on the processing

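The ratios of dexamethasone to control for peak number, covered length, share of the list and genes with a start peak stayed below 1 under every alternative run. Leaving out each library in turn gave 0.50 to 0.569 for peak number, 0.428 to 0.442 for covered length, 0.828 to 0.894 for share of the list and 0.455 to 0.484 for genes with a start peak. With the replicate number as a block these ratios stayed at 0.532, 0.435, 0.861 and 0.469, and the exact permutation p within blocks was 0.5, the smallest it can be, so it changed no call. The numbers are shared between the groups without a stated link. With equal list lengths of 67582 peaks, the share of the list had a ratio of 0.595. Ending the HOXB window beyond HOXB9, an alternative chosen after seeing the data, gave 0.416 for covered length.

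The counts moved more. Control-only genes numbered 9 with a start window of 2.5 kb, 6 when 50% of the peak had to lie inside, and 14 when the cluster's strand, a choice made after seeing the data, set the 5′ end. Without 1 library they numbered 15 to 18. Control-only regions ranged from 33 to 48 without 1 library, the latter without control replicate 2. Dexamethasone-only regions numbered 7 with equal list lengths and 5 without any 1 of the 4 libraries. GR peaks numbered 4 without the 10 kb margin. The causes were not tested. Depth is unknown, and weak peaks of a shallower library may be missing from its list.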

Other observations

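Retinoic acid is a known inducer of HOX genes, and the genes of its pathway were read by the same rule. Of 14 retinoid genes, 6 and 7 had an H4K12la start peak in control and 3 and 3 after dexamethasone. Control-only genes numbered 3, or 21.4% beside 22.1% of all genes, and 7 had none, or 50% beside 31.7%. The control-only genes were the receptors RXRA, with 61 and 54 in control, RARA, with 41 and 52, and RXRB, with 40 and 32. RARG had 31 and 30 in control and 16 and 20 after dexamethasone. CYP26C1, an enzyme that breaks down retinoic acid, had 16 and 19 in control and 27 and 21 after dexamethasone, so both values were higher after dexamethasone.

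Among the 60 genes of other homeobox families, 6 were control-only by a start peak, or 10% beside 22.1% of all genes, and 5 were in all 4 lists, or 8.33% beside 19.4%. Another 2 were dexamethasone-only, or 3.33% beside 0.619%, and 8 had a GR start peak, or 13.3% beside 33%. PAX9 had 68 and 60 in control, OTX1 had 63 and 76 and IRX5 had 66 and 68, each without a dexamethasone peak. PAX8, a renal lineage factor, had 140 and 119 in control and 27 and 18 after dexamethasone. IRX6, with 21 and 20, and NKX6-3, with 16 and 13, were the dexamethasone-only genes. PAX8 and CYP26C1 were chosen after their values were seen.

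Of 4 blood markers, 2 and 2 had a start peak in control and 1 and 1 after dexamethasone. Of 3 endothelial markers, 1 and 2 had one in control and 2 and 1 after dexamethasone. Of 2 hepatocyte markers, 0 and 1 had one in control and neither had one after dexamethasone.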
